A study of Mus musculus with 6 samples.

Results

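The Hippo pathway is a kinase cascade that restrains the transcriptional coactivators YAP and TAZ, and 10 genes of it or driven by it were described here in cultured mouse thymic tuft cells: the YAP targets Ankrd1, Ccn1, Ccn2, F3, Axl, Amotl2, Ccdc80, Crim1 and Lats2, and the upstream scaffold gene Wwc1. All 10 are among the 9088 genes of the deposited count table. The set was chosen by measured values, the rIL-13 against vehicle differences of Ankrd1, F3 and Wwc1 in these same libraries, so the difference between the groups is given for all 10 as a description and without a test. Thymic tuft cells are an epithelial cell type of the medulla that carries a taste-like signalling machinery. They were sorted from thymi of young male wild-type (WT) mice, spun into aggregates in wells, cultured for 12 h and then for a further 24 h in new medium. The 3 rIL-13 libraries come from wells that then received recombinant interleukin 13 (rIL-13), a type 2 cytokine, at 20 ng/mL for 24 h. The 3 vehicle libraries come from wells of the same WT tuft cells that received PBS alone for the same time. The labels name no strain, transgene or exact age, and do not say whether replicates were separate cultures or animals, so the spread between libraries may be technical.

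In the Hippo cascade the kinases MST1 and MST2 (genes Stk4 and Stk3) activate LATS1 and LATS2, which phosphorylate YAP (Yap1) and TAZ (Wwtr1) and hold them in the cytoplasm. KIBRA, the product of Wwc1, and merlin, the product of Nf2, promote LATS activity at the cell cortex. Free YAP and TAZ enter the nucleus, bind the TEAD transcription factors and drive targets that were mostly defined in human cell lines, and some of these, such as LATS2 and AMOTL2, inhibit YAP in turn. YAP and TAZ respond to cell density, attachment and tension in many epithelia and in mesenchymal cells.

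The bulk RNA assay was MARS-seq, which attaches a unique molecular identifier (UMI) to the 3' end of each captured transcript, so that a UMI count does not grow with transcript length and genes can be compared with each other on the CPM scale (UMIs scaled to a common library total, with TMM factors). Values of a group are given in the order of replicate numbers 1, 2 and 3. Totals over the listed genes were 248028 to 295614 UMIs in rIL-13 libraries and 394513 to 489919 in vehicle libraries, so the rIL-13 libraries were shallower. Of 26 tuft cell markers, 23 were listed, including the transcription factor gene Pou2f3, the channel gene Trpm5 and the cytokine gene Il25, in every library. Markers of fibroblasts, mesothelium and smooth muscle were also present, and their levels are given beside the results they touch. In bulk RNA, fewer cells of a type and less RNA per cell cannot be told apart.

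Promoter sequence is shown for the 3 genes that stood out and for Ccn1, a classical YAP target, so that the TEAD sites these targets are known for can be looked for beside the values. RefSeq gave a promoter for 8 of the 10 genes, with 2 start sites for Lats2; Ccn2 and Ccdc80 were not matched. Each window searched holds the 250 bases before the RefSeq start, 5′ to 3′ on the gene's own strand, in build GRCm38.p6 (mm10). The windows of Ccn1, F3 and Wwc1 are shown whole, and for Ankrd1 the 30 bases around each motif. GENCODE M21 puts the furthest upstream start of Ankrd1 255 bases before the RefSeq start, so that all 250 bases of its window, both motifs included, lie in a 5′ untranslated exon of a longer annotated transcript. For Amotl2 that distance is 1132 bases, with 136 bases of the window in untranslated exons, and for Lats2 it is 12265 and 23970 bases from the RefSeq starts. In F3, 116 bases of the window lie in annotated exons that do not belong to F3. In Crim1, 28 bases of the window lie in annotated exons. Capitals mark the TEAD motif GGAATG or its reverse complement CATTCC in Ankrd1 and Ccn1, and the AP-1 motif TGANTCA in F3. Wwc1 has no capitals because none of the motifs searched was found in it.
Ankrd1 upstream site, chr19:36120037-36120066, minus strand: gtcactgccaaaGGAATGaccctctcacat
Ankrd1 downstream site, chr19:36119950-36119979, minus strand: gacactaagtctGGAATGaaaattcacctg
Ccn1, chr3:145649986-145650235, minus strand: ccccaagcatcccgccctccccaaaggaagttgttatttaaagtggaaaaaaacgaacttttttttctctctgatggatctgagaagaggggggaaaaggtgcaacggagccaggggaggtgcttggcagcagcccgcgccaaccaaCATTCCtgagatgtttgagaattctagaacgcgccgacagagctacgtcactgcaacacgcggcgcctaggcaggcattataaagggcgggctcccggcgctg
F3, chr3:121723287-121723536, plus strand: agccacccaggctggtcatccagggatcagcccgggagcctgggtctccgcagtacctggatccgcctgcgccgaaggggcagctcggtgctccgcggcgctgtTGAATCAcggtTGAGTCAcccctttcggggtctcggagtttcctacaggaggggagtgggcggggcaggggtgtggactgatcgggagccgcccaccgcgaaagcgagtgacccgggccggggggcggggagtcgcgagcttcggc
Wwc1, chr11:35980528-35980777, minus strand: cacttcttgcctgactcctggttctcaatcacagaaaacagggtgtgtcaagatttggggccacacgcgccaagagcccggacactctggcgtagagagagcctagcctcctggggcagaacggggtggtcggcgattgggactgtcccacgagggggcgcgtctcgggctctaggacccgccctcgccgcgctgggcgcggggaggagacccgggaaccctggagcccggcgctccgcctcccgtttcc

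Ankrd1 held 2 TEAD motifs, starting 210 and 123 bases before the RefSeq start. Ccn1, Axl, Amotl2 and Crim1 held 1 each, starting 103, 233, 65 and 79 bases before it, so that 5 of the 8 genes with a promoter had the hexamer in this window, against 12.6% of 32851 RefSeq promoter windows of 250 bases. F3 held 2 AP-1 motifs, starting 146 and 135 bases before the start, and none of the other windows held it (6.75% of all windows do). The STAT6-type motif, TTC and GAA with any 4 bases between them (5.85% of all windows), and the CArG box bound by SRF (1.47%) were in none of the 9 windows of these genes. Both strands were searched and the motifs do not overlap in these windows. The genes were gathered as YAP targets, so TEAD motifs near them are a description of the set, and a missing match says only that these letters are not in this window.

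Ankrd1 and F3 lay lower in all 3 rIL-13 libraries than in all 3 vehicle libraries, Wwc1 lay higher in all 3, and the groups overlapped for the other 7 genes. Among the 5135 genes tested, the rIL-13 libraries lay entirely below the vehicle libraries for 5.94%, entirely above for 5.76%, and in either direction for 11.7%. The fitted log2 fold change was below 0 for 9 of the 10 genes, against 50.0% of the genes tested, with a median of -0.43 over the 10 and -0.0003 over all genes tested. Crim1, the shallowest, was under the count filter, and 9 genes were tested. None of these 9 passed an adjusted p under 0.05 in edgeR (3 of 5135 genes, or 0.0584%, did: 0.0389% higher and 0.0195% lower with rIL-13), and 3 had an unadjusted p under 0.05 (5.49% of genes tested did). DESeq2 called Ankrd1, edgeR without a count filter called Ankrd1 and Wwc1, and limma voom called none. The same contrast chose the genes, so nothing is read from these counts. Without rIL-13 replicate 3 the median over the genes was -0.21, and 8 of 10 were below 0.

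**Figure D1:**
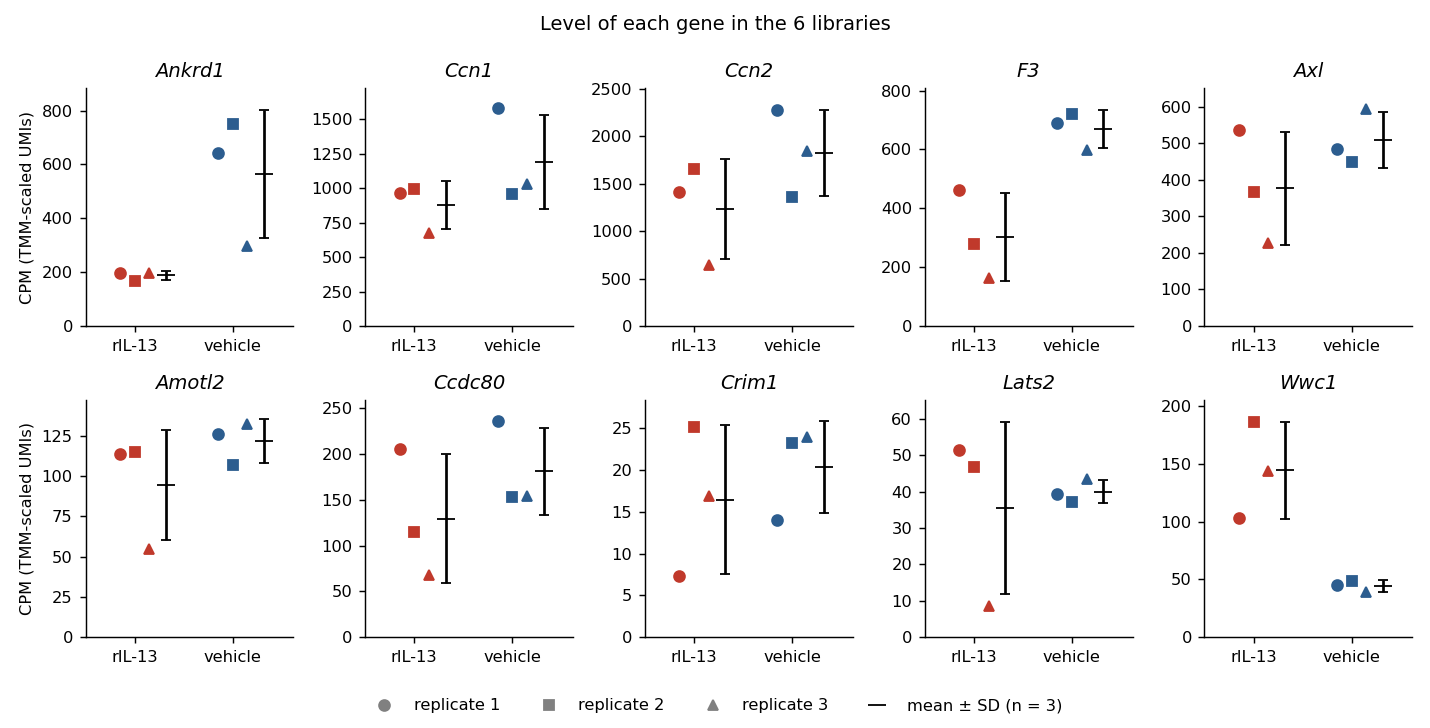
CPM, scaled by TMM factors, of each of the 10 genes (y axis, from 0) in the 3 rIL-13 libraries (red) and the 3 vehicle libraries (blue), with symbols for the replicate number and the mean ± SD beside each group. The groups separate for Ankrd1, F3 and Wwc1, and rIL-13 replicate 3 (red triangle) is the lowest point for 7 of the 10 genes.

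Transcripts of the secreted matricellular protein genes Ccn2 and Ccn1 were the most abundant of the set. Ccn2, which encodes connective tissue growth factor, a matrix-associated signalling protein, lies on chromosome 10 at 24595442 to 24598683 on the plus strand. It had 1407, 1652 and 638 CPM in rIL-13 replicates 1, 2 and 3, against 2271, 1360 and 1843 CPM in vehicle replicates 1, 2 and 3, and stood at rank 74 of the 9088 listed genes by mean vehicle level. Vehicle replicate 2 lay below rIL-13 replicates 1 and 2, so the groups overlapped. The log2 fold change was -0.56 ± 0.33 (SE, n = 3 each), and -0.25 without rIL-13 replicate 3.

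Ccn1, which encodes the related secreted integrin ligand CYR61 (chromosome 3, 145646976 to 145649981, minus strand), had 966, 991 and 676 CPM in the rIL-13 libraries, against 1580, 958 and 1027 CPM in the vehicle libraries, and stood at rank 131. Its spread came from opposite ends, since rIL-13 replicate 3 was low and vehicle replicate 1 was high. The log2 fold change was -0.44 ± 0.23 (SE, n = 3 each), and -0.18 without vehicle replicate 1. Ccn1 and Ccn2 together held 58.6% to 67.0% of the set's UMIs in the rIL-13 libraries and 50.3% to 62.9% in the vehicle libraries, so the summed level of the set mostly follows this pair.

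Ankrd1 encodes an ankyrin repeat protein named for its place in heart and skeletal muscle, and it is among the YAP targets most often used as a readout. The gene spans chromosome 19, 36111961 to 36120099, on the minus strand, with no other annotated gene overlapping it. Its counts were 54, 47 and 47 UMIs in rIL-13 replicates 1, 2 and 3, against 229, 324 and 137 UMIs in vehicle replicates 1, 2 and 3. Scaled to depth these were 198, 169 and 199 CPM in rIL-13 libraries, against 643, 752 and 297 CPM in vehicle libraries. The 3 rIL-13 libraries sat close together, with a coefficient of variation of 9.09%, while the vehicle libraries spread 2.53-fold, with a coefficient of variation of 42.1%. The log2 fold change was -1.58 ± 0.30 (SE, n = 3 each), or 2.99-fold lower with rIL-13. It ran from -1.89 without vehicle replicate 3 to -1.33 without vehicle replicate 2. In the authors' deposited table, which was made with DESeq2, Ankrd1 is the single gene of the 10 among the 6 that passed the authors' criteria, at a log2 fold change of -1.58 after the sign is turned to rIL-13 over vehicle.

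Among the vehicle libraries, Ankrd1 was low where the mesothelial markers Msln and Upk3b were low. Msln, the gene of the mesothelial surface protein mesothelin, had 129, 86.2 and 63.4 CPM in rIL-13 libraries, against 427, 443 and 106 CPM in vehicle libraries. Upk3b, a uroplakin gene of mesothelium and urothelium, had 77.1, 71.8 and 33.8 CPM in rIL-13 libraries, against 272, 204 and 43.4 CPM in vehicle libraries. For Msln and Upk3b, as for Ankrd1, vehicle replicates 1 and 2 were the high ones. For Ankrd1, vehicle replicate 3 still lay above every rIL-13 library, whereas for Msln and Upk3b it lay within their range. Set against Msln within each library, Ankrd1 had 1.54, 1.96 and 3.13 UMIs per Msln UMI in rIL-13 libraries, against 1.51, 1.70 and 2.80 in vehicle libraries, so these ratios overlapped between the groups. Neither marker passed the test between groups, with Msln at a log2 fold change of -1.79 ± 0.59 and Upk3b at -1.47 ± 0.71 (SE, n = 3 each, edgeR adjusted p = 0.804 and 0.860). Over the whole mesothelial list, with 9 of 10 markers listed, the summed level ran from 1745 to 2876 CPM with rIL-13 and from 1632 to 4185 CPM with vehicle. The most abundant of its markers were Krt19, a keratin gene shared with many epithelia, and Upk1b. Krt19 had 1036, 1781 and 1973 CPM in rIL-13 libraries, against 1095, 1661 and 1068 CPM in vehicle libraries. Upk1b had 217, 366 and 325 CPM with rIL-13, against 1151, 919 and 117 CPM with vehicle. The keratin gene Krt7 was instead lowest in vehicle replicate 2, with vehicle values of 269, 34.8 and 89.0 CPM. The mucin gene Muc16 was not analysed here. Msln, Upk3b and Krt7 were singled out after their values were seen, and the part of mesothelial cells in the Ankrd1 result was not tested.

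F3 encodes tissue factor, the membrane receptor that starts coagulation, and lies on chromosome 3 at 121723537 to 121735048 on the plus strand. It had 126, 78 and 39 UMIs in rIL-13 replicates 1, 2 and 3, against 246, 310 and 275 UMIs in vehicle replicates 1, 2 and 3. As CPM these were 463, 280 and 165 in the rIL-13 libraries, against 691, 719 and 597 in the vehicle libraries. Here the spread was the other way round from Ankrd1: the vehicle libraries were alike, with a coefficient of variation of 9.57%, and the rIL-13 libraries spread 2.81-fold, with a coefficient of variation of 49.7%. The log2 fold change was -1.14 ± 0.29 (SE, n = 3 each), or 2.20-fold lower with rIL-13. With single libraries left out it ran from -1.60 (rIL-13 replicate 1) to -0.84 (rIL-13 replicate 3).

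Axl and Ccdc80 had the order of F3 among the rIL-13 libraries, with replicate 1 highest and replicate 3 lowest. Axl, a receptor tyrosine kinase for the ligand GAS6 (chromosome 7, 25757273 to 25788705, minus strand), had 536, 366 and 228 CPM in rIL-13 libraries, against 483, 448 and 595 CPM in vehicle libraries. Replicate 1 of the rIL-13 group thus lay among the vehicle values and the other two below all of them. Its log2 fold change of -0.43 ± 0.27 (SE, n = 3 each) was -0.79 when rIL-13 replicate 1 was left out and -0.17 when replicate 3 was. Ccdc80, a secreted matrix protein gene (chromosome 16, 45093402 to 45128077, plus strand), had 206, 115 and 67.6 CPM in rIL-13 libraries, against 236, 153 and 154 CPM in vehicle libraries. The pattern was that of Axl, and the log2 fold change of -0.47 ± 0.34 was -0.98 when rIL-13 replicate 1 was left out and -0.17 when replicate 3 was. Crim1, a transmembrane protein gene with a role in growth factor signalling (chromosome 17, 78200248 to 78376592, plus strand), had 2, 7 and 4 UMIs in rIL-13 libraries, against 5, 10 and 11 UMIs in vehicle libraries. At these counts no difference was detectable, with a log2 fold change of -0.33 ± 0.62 in the fit without a count filter, and 0.01 without rIL-13 replicate 1. The 3' end of Crim1 lies within 1 kb of Fez2 on the other strand, and whether counting used strand is not given in the sources used here.

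Summed fibroblast markers had the same order among the rIL-13 libraries, although 5 of the 10 listed markers (of 12) had it singly. Their summed level was 3280, 1831 and 1216 CPM in rIL-13 replicates 1, 2 and 3, against 2689, 2109 and 2950 CPM in vehicle replicates 1, 2 and 3. The most abundant were the collagen gene Col1a2 and the fibrillin gene Fbn1, every listed marker had a UMI in every library, and Lum and Dpt were not analysed here. Replicate 1 of the rIL-13 group was the highest of all libraries for this sum and replicate 3 the lowest. Col1a1, Col3a1, Fbn1, Pdgfrb and Thy1 had the order of F3, whereas Dcn, Col6a1 and Col6a2 peaked in rIL-13 replicate 2, and Col1a2 and Pdgfra were lowest there. The groups overlapped for the fibroblast sum and not for F3. The smooth muscle and pericyte list (6 of 7 listed, led by Tagln) ran from 2596 to 4100 CPM with rIL-13 and from 3767 to 4543 CPM with vehicle. The skeletal and cardiac muscle list (11 of 14 listed) ran from 241 to 1106 CPM with rIL-13 and from 432 to 4293 CPM with vehicle, and was highest in vehicle replicate 3, the vehicle library with the least Ankrd1. Its intermediate filament gene Des was the single marker of these lists to pass, and fell to 80.8, 71.8 and 67.6 CPM in rIL-13 libraries, against 202, 206 and 308 CPM in vehicle libraries (log2 fold change -1.70 ± 0.28, SE, n = 3 each, edgeR adjusted p = 0.0204). Tnni3, of the same list, went the other way at few UMIs. It had 7, 11 and 14 UMIs in rIL-13 libraries, against 5, 2 and 1 UMIs in vehicle libraries. Des and Tnni3 were named after their values were seen, so neither gives the direction of the list. The tuft cell list ran from 10440 to 17210 CPM with rIL-13 and from 10570 to 12320 CPM with vehicle, with rIL-13 replicate 1 the lowest. The part of any of these cell types in the results for the 10 genes was not tested.

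**Figure D2:**
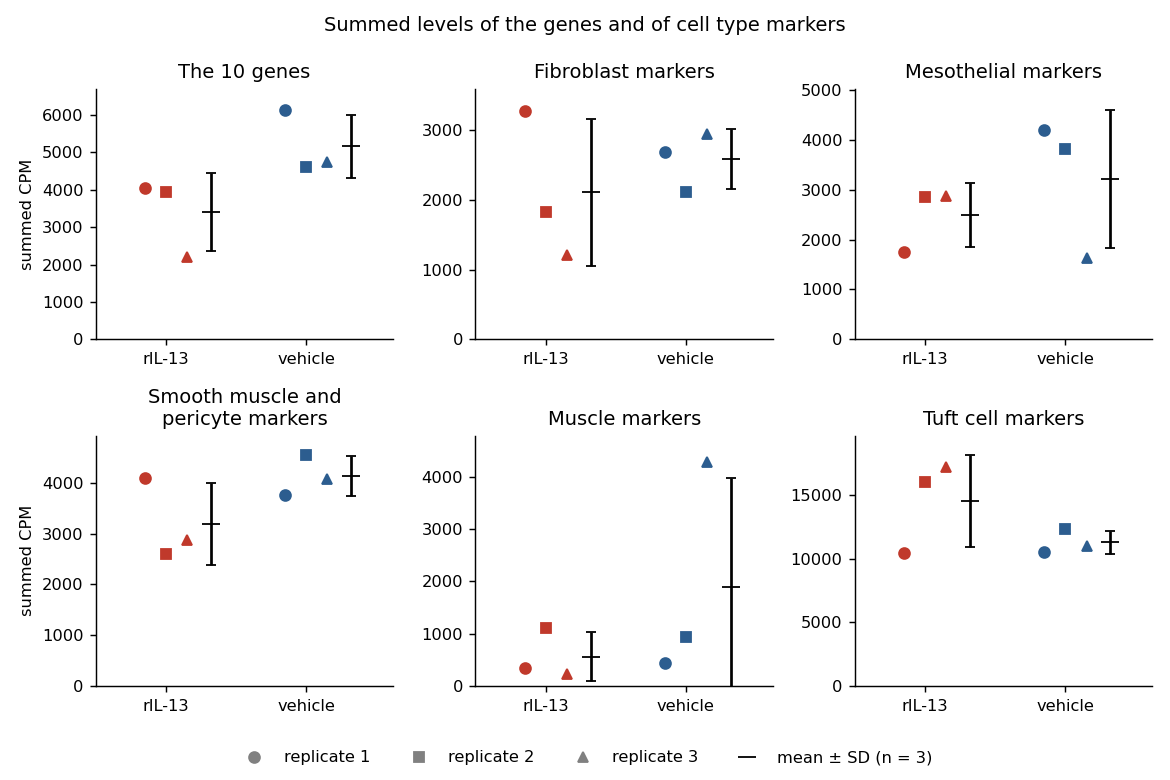
Summed CPM (y axis, from 0) of the 10 genes and of 5 lists of cell type markers in rIL-13 (red) and vehicle (blue) libraries, with symbols for the replicate number and the mean ± SD beside each group (the lower bar for muscle markers is cut at 0). The sum of the 10 genes ran from 2196 to 4052 with rIL-13 and from 4606 to 6127 with vehicle, a sum that includes Ankrd1, F3 and Wwc1, whose difference chose the set. Summed fibroblast markers were highest in rIL-13 replicate 1 and lowest in rIL-13 replicate 3.

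Summed over the 10 genes, the level was 4052, 3946 and 2196 CPM in rIL-13 replicates 1, 2 and 3, against 6127, 4606 and 4751 CPM in vehicle replicates 1, 2 and 3. The groups did not overlap, but the sum holds Ankrd1, F3 and Wwc1, whose difference chose the set. Without these 3 it was 3288, 3311 and 1690 CPM with rIL-13, against 4749, 3086 and 3818 CPM with vehicle, and the groups overlapped. Without Ccn1 and Ccn2 as well, the sum over the remaining 5 genes was 915, 668 and 376 CPM with rIL-13, against 898, 768 and 949 CPM with vehicle, again with overlap. As a share of all listed UMIs the set held 0.373%, 0.383% and 0.210% with rIL-13 and 0.553%, 0.434% and 0.447% with vehicle. The library rIL-13 replicate 3 was the lowest of all 6 for 7 of the 10 genes, against 21.2% of genes tested. It was lower than every vehicle library for 8 of the 10 genes, against 3 in rIL-13 replicate 1 and 4 in rIL-13 replicate 2. Among all genes tested that share was 30.2%, 28.2% and 27.8% in the same 3 libraries. Ankrd1 and F3 are counted in each of these 3 libraries and Wwc1 in none. Their difference chose the set, so the counts over the 10 genes partly reflect that choice.

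Amotl2 and Lats2, the inhibitors of YAP in the set, overlapped between the groups. Amotl2, an angiomotin family gene whose protein binds YAP and activates LATS2 (chromosome 9, 102716672 to 102733418, plus strand), had 114, 115 and 54.9 CPM in rIL-13 libraries, against 126, 107 and 132 CPM in vehicle libraries. Leaving out rIL-13 replicate 3, the low one, brought its log2 fold change of -0.35 ± 0.31 (SE, n = 3 each) to -0.09. Lats2, the LATS kinase gene that is itself a YAP target (chromosome 14, 57689662 to 57758388, minus strand), had 14, 13 and 2 UMIs in rIL-13 libraries, against 14, 16 and 20 UMIs in vehicle libraries. As CPM, rIL-13 replicates 1 and 2, at 51.4 and 46.7, lay above every vehicle library (37.1 to 43.4), and rIL-13 replicate 3, at 8.45, lay below them. The log2 fold change of -0.14 ± 0.48 was 0.30 without rIL-13 replicate 3, so its sign rests on that library. Another annotated gene on the same strand, Gm49361, reaches the 3' end of Lats2, so the assignment of reads there is uncertain.

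Wwc1 was the single gene of the set with a higher level in the rIL-13 libraries. It encodes KIBRA, a WW domain scaffold that acts upstream of LATS, and its gene spans chromosome 11, 35838400 to 35980527, on the minus strand. It had 28, 52 and 34 UMIs in rIL-13 replicates 1, 2 and 3, against 16, 21 and 18 UMIs in vehicle replicates 1, 2 and 3, although the rIL-13 libraries were shallower. As CPM these were 103, 187 and 144 in rIL-13 libraries, against 44.9, 48.7 and 39.1 in vehicle libraries, so that even the lowest rIL-13 library was above the highest vehicle library. The log2 fold change was 1.70 ± 0.32 (SE, n = 3 each), or 3.25-fold higher with rIL-13, and ran from 1.46 to 1.88 with any 1 library left out. By mean level Wwc1 stood at rank 1354 of the listed genes with rIL-13 and 3944 with vehicle.

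Wwc2, the paralogue of Wwc1, which also encodes a LATS-activating scaffold, had its values the other way round. Its counts were 12, 11 and 3 UMIs in rIL-13 libraries, against 30, 30 and 30 UMIs in vehicle libraries, and as CPM it had 44.1, 39.5 and 12.7 with rIL-13, against 84.2, 69.6 and 65.1 with vehicle. The groups did not overlap, but Wwc2 did not pass the test over all genes (log2 fold change -1.14 ± 0.42, edgeR adjusted p = 0.797, unadjusted p = 0.0132). Within each library, where no scaling enters, there were 2.33, 4.73 and 11.3 Wwc1 UMIs per Wwc2 UMI with rIL-13, against 0.533, 0.70 and 0.60 with vehicle. Wwc1 was thus the more frequent of the paralogues in each rIL-13 library and the less frequent in each vehicle library. Wwc1 was chosen on this contrast and Wwc2 was named for its small p in it, so this separation was favoured in advance. Counting error is large in rIL-13 replicate 3, where Wwc2 had 3 UMIs.

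The other paralogue pairs gave ratios with less difference between the groups. There were 1.75, 0.765 and 0.667 Lats2 UMIs per Lats1 UMI in rIL-13 libraries, against 2.0, 1.45 and 1.54 in vehicle libraries, and rIL-13 replicate 1 lay among the vehicle values. For Amotl2 over its angiomotin relative Amot the ratios were 3.44, 1.60 and 1.30 with rIL-13, against 4.50, 3.54 and 8.71 with vehicle, with no overlap but with counts of Amot of 7 to 20 UMIs. The ratio of Ccn2 to Ccn1 was 1.46, 1.67 and 0.944 with rIL-13, against 1.44, 1.42 and 1.79 with vehicle, and the groups overlapped. All of these pairs, Wwc1 and Wwc2 included, were chosen after the values were seen. Their ratios are given without a test, and nothing is read from which pair differs more.

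**Figure D3:**
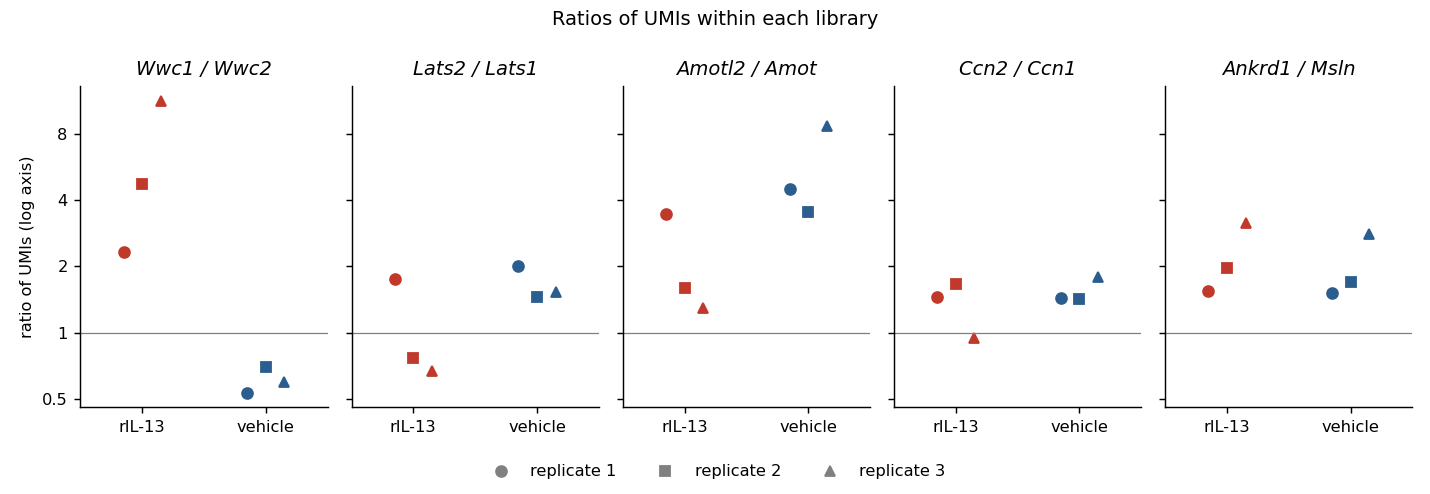
Ratio of UMIs between 2 genes within each library (y axis, log scale; grey line at 1) in rIL-13 (red) and vehicle (blue) libraries, with symbols for the replicate number. Wwc1 over Wwc2 lies above 2 in all rIL-13 libraries and below 1 in all vehicle libraries, whereas Ankrd1 over Msln covers the same range in both groups. The pairs were chosen after the values were seen.

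Other genes of the pathway were taken from 5 lists of Hippo and YAP genes, ordered by role. Of 87 further genes, 73 were listed and 49 were tested, and none passed in edgeR over all genes, in either direction. At an unadjusted p under 0.05 there were 4 of 49 (Wwc2, Amot, Ywhah and Cav1), against 5.49% of all genes tested. None of the further genes passed in DESeq2 or limma voom. The log2 fold changes of the 49 had a median of -0.01, with 26 below 0, against 50.0% of all genes tested. Without vehicle replicate 3, Cav1 passed, at -1.62 (edgeR adjusted p = 0.0288).

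The nuclear effectors are YAP, TAZ and their partners, the TEAD factors among them. Yap1 itself had 62.5, 35.9 and 59.1 CPM in rIL-13 libraries, against 64.6, 48.7 and 106 CPM in vehicle libraries (log2 fold change -0.49 ± 0.38, SE, n = 3 each, edgeR adjusted p = 0.920). The groups overlapped. Wwtr1, the gene of TAZ, had 10, 7 and 3 UMIs with rIL-13 and 10, 12 and 9 with vehicle and was under the count filter (0.01 ± 0.52 in the fit without it). The TEAD factor gene Tead1 had 77.1, 82.6 and 71.8 CPM with rIL-13, against 107, 107 and 99.9 CPM with vehicle, with no overlap (-0.43 ± 0.29, edgeR adjusted p = 0.898). Tead3, another of the family, was at -0.71 ± 0.41 (edgeR adjusted p = 0.860). All 4 tested effectors had a log2 fold change below 0 (50.0% of all genes tested did), with a median of -0.46, and none passed.

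Among core kinases and adaptors, 8 of 19 genes were tested, 3 below 0 and 5 above, with a median of 0.11. Nf2, the gene of merlin, was at 0.22 ± 0.33, the LATS-related kinase gene Stk38 at 0.32 ± 0.27 and the kinase gene Map4k4 at -0.51 ± 0.28 (edgeR adjusted p = 0.957, 0.926 and 0.860). Lats1 had 8, 17 and 3 UMIs with rIL-13 and 7, 11 and 13 with vehicle and was under the count filter. Among junction and polarity regulators, 14 of 21 were tested, with a median of 0.16. Amot was at 1.01 ± 0.46 and the LIM domain gene Limd1, whose protein inhibits LATS, at 0.52 ± 0.30, while the related Ajuba was at -0.60 ± 0.37 and the phosphatase gene Ptpn14 at -0.58 ± 0.71 (edgeR adjusted p from 0.860 to 0.941). Ajuba and Ptpn14 are also on the list of targets.

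Among phosphatase, 14-3-3 and turnover partners, 14 of 19 were tested, with 7 on each side of 0 and a median of 0.09. The kinase gene Csnk1d, whose product marks YAP for degradation, was at 0.55 ± 0.28, and the 14-3-3 genes Ywhab, Ywhah and Ywhaq, whose products bind phosphorylated YAP, at 0.29 ± 0.25, -0.53 ± 0.24 and -0.41 ± 0.24 (edgeR adjusted p from 0.860 to 0.926). Of 20 further YAP targets, 11 were tested, 9 of them below 0 (50.0% of all genes tested were), with a median of -0.14. Cav1, the gene of caveolin 1, had 44.1, 71.8 and 54.9 CPM with rIL-13, against 163, 188 and 49.9 CPM with vehicle, so vehicle replicate 3 lay within the rIL-13 values, and its log2 fold change was -1.21 ± 0.45 (edgeR adjusted p = 0.804). The survivin gene Birc5 and the stress gene Gadd45a were at 0.17 ± 0.30 and 0.30 ± 0.66 (edgeR adjusted p = 0.965 and 0.976).

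**Figure D4:**
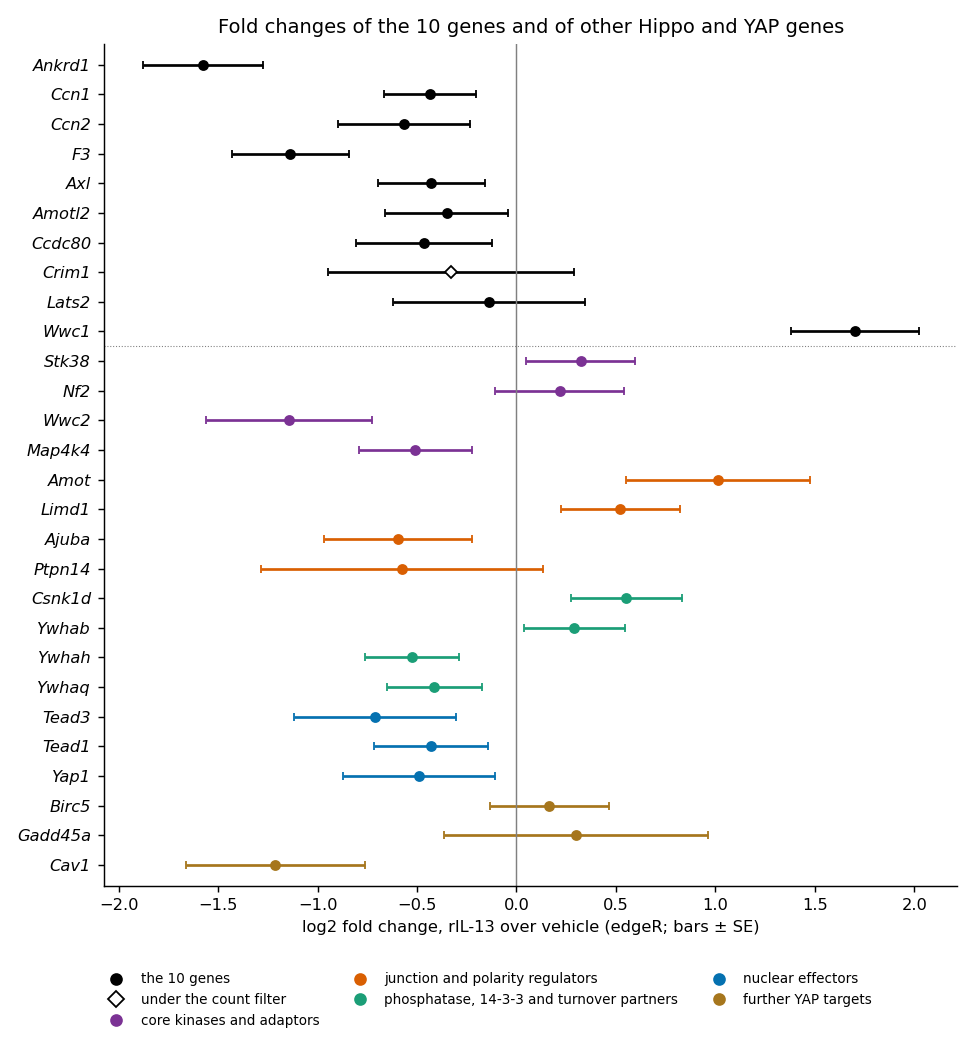
Log2 fold change of rIL-13 over vehicle (x axis; edgeR, bars ± SE, n = 3 libraries each) for the 10 genes (black, above the dotted line; open diamond for Crim1, under the count filter) and for the named tested genes of 5 other Hippo and YAP lists (colours). Of the 10 genes 9 lie left of 0, and the named genes of the other lists lie on both sides, with Wwc2 and Cav1 farthest to the left and Amot farthest to the right.

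Genes with the most similar pattern were sought for Ankrd1, F3 and Wwc1 by the root mean square difference of log2 CPM over the 6 libraries, each gene centred on its mean. The closest to Ankrd1 were Creg1, Ube2l6 and Ldah, at 0.29 to 0.37, against a median of 0.90 over all genes tested. Creg1 had 8, 10 and 5 UMIs in rIL-13 libraries, against 35, 44 and 26 UMIs in vehicle libraries. The closest to F3 was Wwc2, at 0.21, followed by Pcnx3 and Errfi1, which encodes a feedback inhibitor of the EGF receptor, at 0.25 and 0.26, against a median of 0.82. The closest to Wwc1 were the receptor tyrosine kinase gene Kit, at 0.25, the phosphatase gene Ptpn18, at 0.25, and Fryl, at 0.28, against a median of 0.88. Kit had 11, 28 and 20 UMIs in rIL-13 libraries, against 5, 11 and 6 UMIs in vehicle libraries. These likenesses rest on 6 libraries in 2 groups, and many genes of few UMIs can come close by counting error.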

How the data were processed

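Per the file headers, the deposited values are raw UMI counts per gene, counts divided by size factors (a normalized signal), regularized log2 values, and the fold changes and p-values of a comparison by the authors. The tools bcl2fastq, cutadapt, STAR 2.5.2b, HTSeq and DESeq2 and build mm10 are named in the submitters' processing notes, without roles. Genes are listed (9088 in all) where some library reaches 6 UMIs, which leaves totals short of the whole depth. All values here come from the deposited counts, except what is quoted from the authors' comparison: their fold change of vehicle over rIL-13 for Ankrd1, with its sign turned, and which genes passed their criteria. Their signal, regularized log2 values and p-values were not used otherwise.

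Counts were fitted with edgeR 4.0.16 (R 4.3.3, quasi-likelihood F test, robust, TMM, default count filter), with group as the single term. It left 5135 genes, which hold 93.8% of UMIs, at a biological coefficient of variation of 24.9%. Adjusted p-values (Benjamini-Hochberg, two-sided, threshold 0.05) run over all tested genes. Standard errors are those implied by the F statistic. CPM are UMIs over TMM-scaled totals of the tested genes, and patterns used log2 CPM with a prior count of 2. Crim1, Lats1 and Wwtr1, under the filter, come from the same fit with 1 UMI as the single requirement. Fits were tested on simulated data. Alternatives were DESeq2 1.42.0, limma 3.58.1 voom, other scalings and filters, a replicate term and leaving out each library. No library repeats another: replicates differed beyond counting noise, with chi-square over degrees of freedom from 2.72 to 5.81. Figures were drawn with matplotlib 3.10.9.

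Named genes were the 10 of the set and 6 Hippo genes fixed by name (Yap1, Wwtr1, Tead1, Lats1, Nf2 and Ptpn14). To these were added the 2 tested genes of smallest p in each direction of each list and the 3 of most similar pattern. From the fibroblast and mesothelial lists the 2 most abundant markers were named. Pou2f3, Trpm5, Il25, Tagln, Des and further markers were named outside this rule. The members and lists were chosen with earlier results of these data known. Of the endothelial, thymocyte, myeloid and other thymic epithelial markers, 4 of 8, 1 of 10, 2 of 8 and 6 of 11 were listed. They summed to at most 216, 137, 199 and 448 CPM in any library. The thymocyte value is that of Thy1 alone, which is also on the fibroblast list. Coordinates are from GENCODE M21 on GRCm38 (mm10).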

Additional observations from a re-analysis of the deposited data

How the results depend on the processing

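All 148 refitted log2 fold changes of the 10 genes moved by less than 1 SD between replicates. Leaving out 1 of 3 libraries can hardly move a group mean that far, so this bound says little about stability. Of the refitted values, 2 had the other sign: Lats2 at 0.30 without rIL-13 replicate 3 and Crim1 at 0.01 without rIL-13 replicate 1. The median over the set ran from -0.61 to -0.21 with 1 library left out and from -0.50 to -0.40 with other tools, scalings, filters and the replicate block. Over all genes, those past the threshold numbered 2 higher and 1 lower. They were 4 and 2 with DESeq2, 0 and 0 with limma voom, 5 and 2 with no filter, 1 and 0 without robust estimation, and 2 were lower at adjusted p under 0.1. Leaving out 1 library gave 1 to 20 higher and 0 to 15 lower, and 0 to 1 of the other Hippo and YAP genes. With the replicate number as a block 8 were higher and 5 lower, and Ankrd1, F3 and Wwc1 passed. Deviations from the group means gave correlations of -0.07, 0.07 and -0.22 between same-numbered libraries. The labels do not say whether same-numbered libraries were paired, and with 3 libraries a group these correlations cannot settle it. Ankrd1 passed without vehicle replicate 3, and F3 and Wwc1 without rIL-13 replicate 1. The same contrast chose Ankrd1, F3 and Wwc1, so nothing is read from their passing in any of these fits. The share of UMIs held by the set in vehicle libraries was 0.562% over a total without ribosomal protein genes, against 0.478%. With 3 libraries a group and a few UMIs for some genes, small differences were not detectable. Why calls differ between settings was not tested.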
